A study of Mus musculus with 32 samples.

Results

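The *Hox* genes encode homeodomain transcription factors and lie in 4 clusters in the mouse genome. All 38 genes considered here were taken by symbol from a list of the *Hox* genes of these clusters in the GENCODE M21 annotation on mm10, with no measured value used in the choice. They are 10 *Hoxa*, 10 *Hoxb*, 9 *Hoxc* and 9 *Hoxd* genes, of 21938 protein-coding genes on chromosomes 1 to 19, X and Y. A promoter was the window from 1 kb upstream to 500 bp downstream of any annotated transcription start site (TSS), and it carried a peak when at least 1 bp of it lay under one. Each cluster was also followed as a span, from its first to its last listed gene with 10 kb added on each side. The *Hoxa* span lies on chromosome 6, *Hoxb* on chromosome 11, *Hoxc* on chromosome 15 and *Hoxd* on chromosome 2.

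H3K4me3, H3K9ac, H3K27ac and H3K4me1 were profiled by ChIP-seq in primary leukemias driven by the *MLL-AF9* fusion, in the presence or absence of the histone acetyltransferase Kat2a. The question was which acetylated promoters and enhancers depend on Kat2a, an enzyme that acetylates H3K9. Each genotype and mark had 2 replicates, which gives 16 ChIP libraries. All 16 peak lists were read, of which 12 entered the main comparisons. Both genotypes carried *Kat2a* Flox/Flox alleles and received pIpC, which switches on *Mx1*-Cre in hematopoietic and other interferon-responsive cells. Cells without *Mx1*-Cre kept Kat2a (*Kat2a* WT), and cells with *Mx1*-Cre lost it (*Kat2a* KO). Lineage-depleted bone marrow was transduced with an *MLL-AF9* retrovirus and transplanted into lethally irradiated recipients, and bone marrow was collected at the terminal stage of leukemia. The marrow of 5 animals was pooled for *Kat2a* WT and that of 4 animals for *Kat2a* KO, with 5000000 cells per immunoprecipitation for H3K9ac and H3K4me3 and 500000 for H3K27ac and H3K4me1. The replicates of a genotype are separate cell samples and chromatin preparations of the same pool, so a p-value here measures only the spread between preparations and not that between leukemias.

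Within a *Hox* cluster the genes are numbered in the order in which they are used along the body axis, and in blood formation the genes toward the middle of the *Hoxa* and *Hoxb* clusters are active in stem and progenitor cells and are switched off on maturation. MLL fusion proteins such as MLL-AF9 bind the *Hoxa* cluster and keep its genes active, and Hoxa9 with its partner Meis1 sustains leukemia self-renewal. Polycomb complexes hold silent *Hox* clusters in a repressed state marked by H3K27me3, which was not measured here.

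The sequences shown belong to the promoters with the strongest H3K9ac peak of their cluster. RefSeq promoter entries (GRCm38.p6, 300 bases around a start) matched 22 of the 38 genes, and *Hoxb2* and *Hoxc6*, which also belong to this set, have no entry in the table used. *Hoxa7* (chr6:52218524-52218823), *Hoxa9* (chr6:52227321-52227620) and the inner promoter of *Hoxa10* (chr6:52234890-52235189) are on the minus strand, and *Hoxb4* (chr11:96318017-96318316) is on the plus strand. All are written 5′ to 3′ along the gene, with each CG dinucleotide in capitals.
*Hoxa7*: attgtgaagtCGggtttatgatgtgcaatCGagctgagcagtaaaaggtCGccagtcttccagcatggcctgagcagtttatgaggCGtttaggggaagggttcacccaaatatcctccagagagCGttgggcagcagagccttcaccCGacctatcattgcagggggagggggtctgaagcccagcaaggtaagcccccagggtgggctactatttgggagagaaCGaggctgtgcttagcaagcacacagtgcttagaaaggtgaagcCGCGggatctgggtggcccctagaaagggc
*Hoxa9*: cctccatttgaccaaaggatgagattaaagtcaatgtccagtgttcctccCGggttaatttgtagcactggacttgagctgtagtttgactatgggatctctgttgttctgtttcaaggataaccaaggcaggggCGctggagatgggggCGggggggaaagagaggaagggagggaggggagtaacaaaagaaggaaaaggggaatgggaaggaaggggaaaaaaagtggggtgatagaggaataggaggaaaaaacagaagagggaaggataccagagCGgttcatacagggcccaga
*Hoxa10*: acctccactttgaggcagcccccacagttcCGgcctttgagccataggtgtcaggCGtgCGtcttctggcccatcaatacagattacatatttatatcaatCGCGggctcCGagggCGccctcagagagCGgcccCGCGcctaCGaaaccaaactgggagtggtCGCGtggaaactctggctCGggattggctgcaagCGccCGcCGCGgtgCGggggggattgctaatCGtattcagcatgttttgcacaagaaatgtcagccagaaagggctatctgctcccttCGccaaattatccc
*Hoxb4*: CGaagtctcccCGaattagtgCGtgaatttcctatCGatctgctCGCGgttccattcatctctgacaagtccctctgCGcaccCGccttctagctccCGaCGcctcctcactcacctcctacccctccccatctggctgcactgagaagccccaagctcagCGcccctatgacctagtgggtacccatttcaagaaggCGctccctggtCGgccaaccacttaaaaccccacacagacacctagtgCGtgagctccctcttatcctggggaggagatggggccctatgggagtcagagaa
All 300 bases of the *Hoxa7*, *Hoxa9* and *Hoxb4* promoters lay under H3K9ac peaks in each of the 4 H3K9ac libraries. At the inner *Hoxa10* promoter, 295 and 300 bases did in *Kat2a* WT and 208 and 230 in *Kat2a* KO.

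The clusters also hold microRNAs, of which *Mir196b* lies inside the annotated *Hoxa9* gene near *Hoxa10*, and miR-196 is known to target *Hox* transcripts such as *Hoxb8*. Their mature 5p strands from RefSeq (GRCm38.p6) are shown because related microRNAs lie in several clusters and only 1 of these mature sequences lay under peaks. The seed, bases 2 to 8, is in capitals. The miR-196 members share the seed AGGUAGU and lie at chr6:52230129-52230150 on the minus strand (*Mir196b*) and at chr11:96265187-96265208 (*Mir196a-1*) and chr15:102973365-102973386 (*Mir196a-2*) on the plus strand. The miR-10 members share ACCCUGU and lie on the plus strand at chr11:96317186-96317208 (*Mir10a*) and chr2:74726074-74726096 (*Mir10b*).
miR-196b-5p: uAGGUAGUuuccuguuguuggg
miR-196a-5p: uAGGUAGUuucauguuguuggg
miR-10a-5p: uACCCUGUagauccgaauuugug
miR-10b-5p: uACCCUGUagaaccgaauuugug
The miR-196b-5p sequence lay under an H3K9ac peak and an H3K4me3 peak in all 4 libraries of each mark, and in each genotype's replicate 2 under one of H3K27ac. The remaining 3 mature sequences, at their 4 loci, lay under no peak in any of the 16 libraries.

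*Kat2a* itself (chr11:100704746-100712465, minus strand) carried a promoter H3K9ac peak in every library. The authors' fold enrichment over background was 8.002 and 4.59 in *Kat2a* WT (replicates 1 and 2) and 7.48 and 11.8 in *Kat2a* KO, and that of H3K4me3 was 6.50 and 3.52 in *Kat2a* WT and 6.36 and 10.8 in *Kat2a* KO. These promoter peaks may lie outside the deleted part of the gene and so check nothing about the knockout.

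The lists hold no read counts, so depth is unknown, and the number and extent of peaks stand in for it. H3K9ac lists held 33605 and 31677 peaks in *Kat2a* WT, over 26.8 and 28.9 Mb, and 27657 and 28861 peaks in *Kat2a* KO, over 20.7 and 24.7 Mb. H3K4me3 lists held 23297 and 15685 peaks in *Kat2a* WT, over 18.7 and 10.03 Mb, and 20853 and 19517 in *Kat2a* KO, over 13.0 and 14.8 Mb. H3K9ac was thus listed over more of the genome in both *Kat2a* WT libraries than in either *Kat2a* KO library, and for H3K4me3 the *Kat2a* WT libraries were the highest and the lowest. In replicate 2, H3K27ac covered 19.7 Mb in *Kat2a* WT and 35.8 Mb in *Kat2a* KO, and H3K4me1 covered 11.5 and 42.1 Mb. Replicate 1 of these marks had a median peak width of 48 to 49 bp, and of its peaks at most 0.0485% per library passed a q-value of 0.05. The study's threshold was this q-value, yet every list also holds peaks that miss it, and in replicate 2 of H3K4me1 34.3% of peaks passed it in *Kat2a* WT and 83.6% in *Kat2a* KO. The study left out 1 replicate of each of these marks without naming it, so replicate 2 was used and its values have no replicate check.

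In H3K9ac the *Hoxa* cluster was by far the most marked of the 4 clusters, *Hoxb* followed, and *Hoxc* and *Hoxd* were close to bare. The mark covered 24.5% and 24.9% of the *Hoxa* span in *Kat2a* WT and 21.2% and 23.7% in *Kat2a* KO. The *Hoxb* span was covered to 6.75% and 9.25% in *Kat2a* WT and to 3.52% and 4.77% in *Kat2a* KO. For *Hoxc* the shares were 0.277% and 0.573% in *Kat2a* WT and 0.215% and 0.294% in *Kat2a* KO, and *Hoxd* held no H3K9ac peak in any of these libraries. These shares were also set against the share of the whole genome under H3K9ac in the same library. *Hoxa* was covered 24.95 and 23.5 times as densely in *Kat2a* WT and 27.9 and 26.2 times in *Kat2a* KO. For *Hoxb* the values were 6.87 and 8.73 in *Kat2a* WT and 4.63 and 5.27 in *Kat2a* KO, and *Hoxc* ranged from 0.282 to 0.541. The order of the clusters was therefore the same in each of the 4 H3K9ac libraries.

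**Figure D1:**
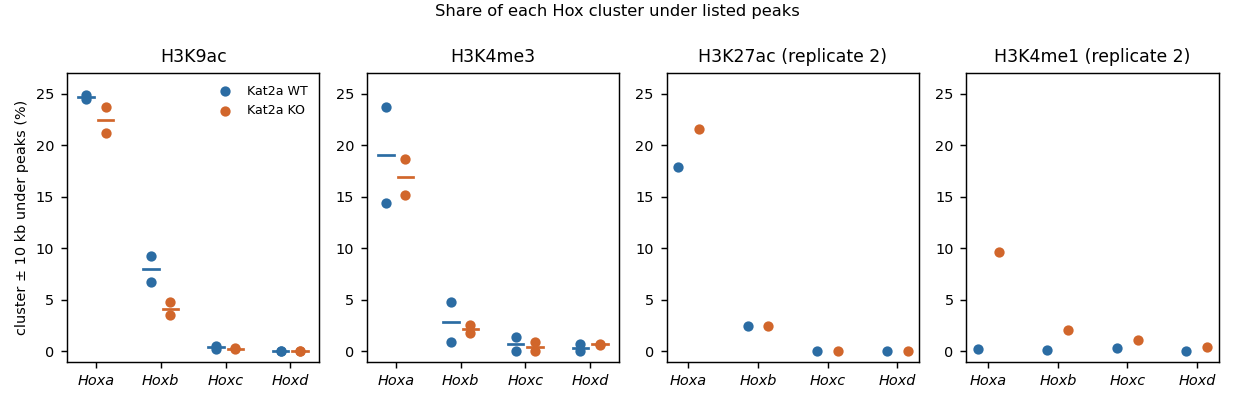
Share of each *Hox* cluster span, with 10 kb on each side, under listed peaks (y axis, percent), for the 4 clusters (x axis) in a panel for each mark. Points are libraries, short lines are means of 2 replicates, and at *Hoxb* both *Kat2a* WT points of H3K9ac lie above both *Kat2a* KO points.

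H3K9ac covered less of *Hoxb* in *Kat2a* KO than in *Kat2a* WT, and the gap was smaller, in proportion, at *Hoxa*. The mean H3K9ac share of *Hoxb* was 8.002% ± 1.77 (SD, n = 2) in *Kat2a* WT and 4.15% ± 0.883 (SD, n = 2) in *Kat2a* KO, a difference of −3.85 percentage points. At *Hoxa* the means were 24.7% ± 0.248 (SD, n = 2) and 22.4% ± 1.76 (SD, n = 2), a difference of −2.26 points. The genotypes did not overlap at either cluster, and the two-sided exact permutation test gave p = 0.33 for both, the smallest p that 2 libraries against 2 allow. With −log10 q of at least 5 they overlapped at *Hoxa* (two-sided exact permutation p = 0.67) and stayed apart at *Hoxb*. Set against the genome share of the same library, as above, both *Kat2a* KO libraries were higher than both *Kat2a* WT libraries at *Hoxa*. At *Hoxb* both were lower. The *Kat2a* KO to WT ratio of the covered share was 0.518 for *Hoxb*, 0.599 for *Hoxc*, 0.908 for *Hoxa* and 0.816 for the genome, and whether these ratios differ was not tested. *Hoxc* overlapped between genotypes (−0.171 points, two-sided exact permutation p = 0.67). As the leukemias were measured in bulk, fewer cells with the mark and less of the mark in each cell cannot be told apart.

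H3K4me3 likewise covered *Hoxa* most and *Hoxb* next, but over all listed peaks the genotypes overlapped at every cluster. It covered 23.7% and 14.4% of *Hoxa* in *Kat2a* WT and 15.2% and 18.6% in *Kat2a* KO, and 4.84% and 0.949% of *Hoxb* in *Kat2a* WT against 2.55% and 1.77% in *Kat2a* KO. At both clusters *Kat2a* WT replicate 1 was the highest and replicate 2 the lowest of the 4 libraries, as in the genome as a whole. The differences were −2.10 points at *Hoxa*, −0.738 at *Hoxb*, −0.261 at *Hoxc* and 0.312 at *Hoxd*, with two-sided exact permutation p = 1.00 for each. With the same number of peaks per library the genotypes were apart at *Hoxd* (0.292 points, two-sided exact permutation p = 0.33). Without replicate 1 the differences at *Hoxa*, *Hoxb* and *Hoxc* changed sign, to 4.25, 0.817 and 0.888 points, and without replicate 2 that at *Hoxd* did, to −0.0787.

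Within *Hoxa* the marks sat on the middle of the cluster. The 34.6 kb from *Hoxa6* to *Hoxa10* lay under H3K9ac to 73.4% and 77.6% in *Kat2a* WT and 67.5% and 73.1% in *Kat2a* KO, while the 42.2 kb from *Hoxa2* to *Hoxa5* were covered to 1.38% to 2.99% and the 18.8 kb from *Hoxa11* to *Hoxa13* to 0 to 3.70%. These blocks were drawn after the peaks had been seen. H3K4me3 covered 70.7% and 44.4% of the middle block in *Kat2a* WT and 45.2% and 56.7% in *Kat2a* KO, so this mark too favored *Hoxa6* to *Hoxa10* in every library.

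**Figure D2:**
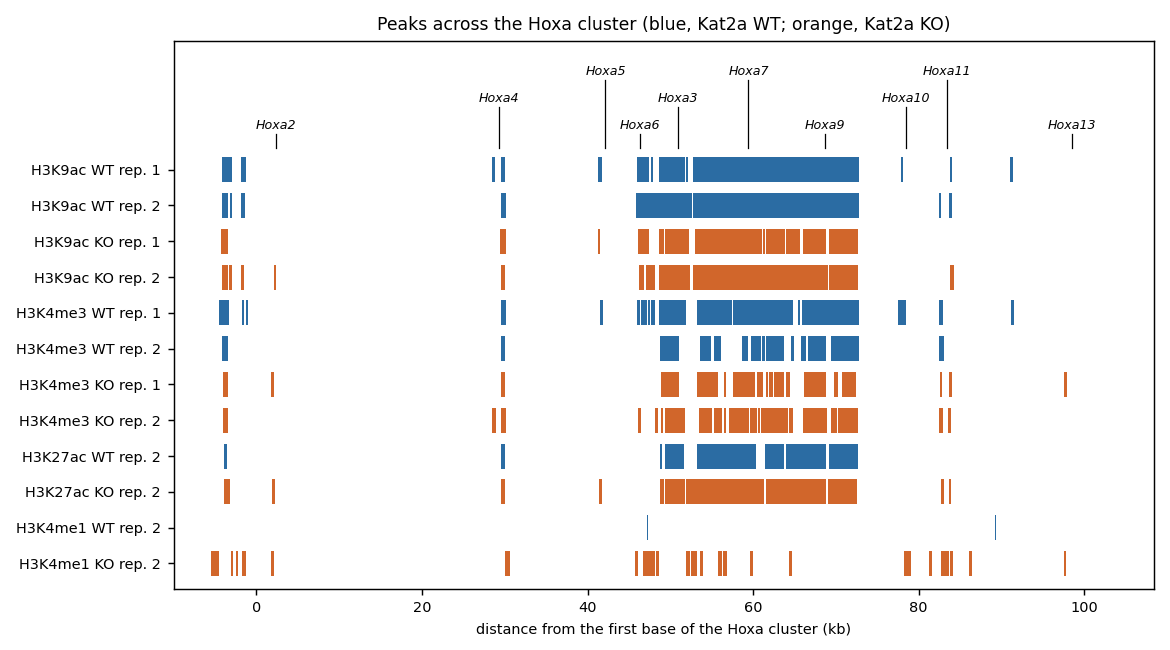
Listed peaks of each library (lines of bars) along the *Hoxa* cluster, with the distance from its first base in kb on the x axis and the outermost annotated start of each gene above. A single H3K9ac peak of about 20 kb spans *Hoxa7*, *Hoxa9* and the inner *Hoxa10* start in both *Kat2a* WT libraries, and the same stretch is split in *Kat2a* KO.

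The widest H3K9ac peak of the entire genome in both *Kat2a* WT libraries was a *Hoxa* peak, 19998 bp in replicate 1 and 20098 bp in replicate 2. The stretch that both share, chr6:52215187-52235184 on mm10, holds annotated starts of *Hoxa7*, *Hoxa9*, *Mir196b* and *Hoxa10*. In *Kat2a* KO replicate 1 the stretch was split into 6 peaks that covered 93.4% of it with a widest gap of 0.392 kb, and in replicate 2 into 2 peaks that covered 99.2% with a gap of 0.077 kb. The widest *Hoxa* peak was 8005 bp long in *Kat2a* KO replicate 1, the fourth widest of that library, and 16243 bp in replicate 2, the widest of its library. As the stretch is defined by a single peak in each *Kat2a* WT library, *Kat2a* KO could only equal that cover or fall short of it. The stretch stayed almost wholly under H3K9ac in *Kat2a* KO, and its highest fold enrichment was 14.4 and 17.8 in *Kat2a* WT and 13.1 and 25.0 in *Kat2a* KO.

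H3K4me3 covered 92.1% and 65.3% of this stretch in *Kat2a* WT and 67.6% and 80.9% in *Kat2a* KO, in 5 to 12 peaks per library. H3K27ac in replicate 2 covered 88.0% of it in *Kat2a* WT and 96.3% in *Kat2a* KO, and H3K4me1 covered 0 and 12.8%. The H3K4me3 peaks of *Hoxa* were also among the widest of their libraries, with the longest at 7195 and 3288 bp in *Kat2a* WT (ranks 2 and 4) and 2670 and 3282 bp in *Kat2a* KO (ranks 38 and 39). Acetylation of either kind and H3K4me3 therefore shared the *Hoxa7* to *Hoxa10* stretch in both genotypes.

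The difference at *Hoxb* lay mostly in the blocks from *Hoxb5* to *Hoxb1*, with a smaller part from *Hoxb13* to *Hoxb6*. The peak over the *Hoxb4* promoter overlapped between genotypes in width, at 2.91 and 2.66 kb in *Kat2a* WT and 1.585 and 2.75 kb in *Kat2a* KO. From *Hoxb5* to *Hoxb4* (18.3 kb), H3K9ac covered 7.42 and 10.8 kb in *Kat2a* WT and 4.601 and 5.96 kb in *Kat2a* KO. From *Hoxb3* to *Hoxb1* (44.9 kb) it covered 4.83 and 6.51 kb in *Kat2a* WT and 2.23 and 3.30 kb in *Kat2a* KO. From *Hoxb13* to *Hoxb6* (107 kb) the values were 0.843 and 0.512 kb in *Kat2a* WT and 0 in both *Kat2a* KO libraries. In each of these blocks, also drawn after the peaks had been seen, both *Kat2a* WT libraries were above both *Kat2a* KO libraries. H3K4me3 overlapped between genotypes in all 3 blocks.

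Of the 19.97 kb of *Hoxb* under an H3K9ac peak in any of the 4 libraries, 26.4% was under a peak in all 4. A further 17.5%, or 3.495 kb, was under a peak in both *Kat2a* WT and neither *Kat2a* KO library, and no base showed the reverse. At *Hoxa* these shares were 74.7% in all 4 and 1.23% in *Kat2a* WT alone, and over the genome they were 40.7% and 4.80%, with 0.806% in *Kat2a* KO alone. *Hoxb* bases were thus listed less uniformly than *Hoxa* bases, and the differences between the clusters were not tested.

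**Figure D3:**
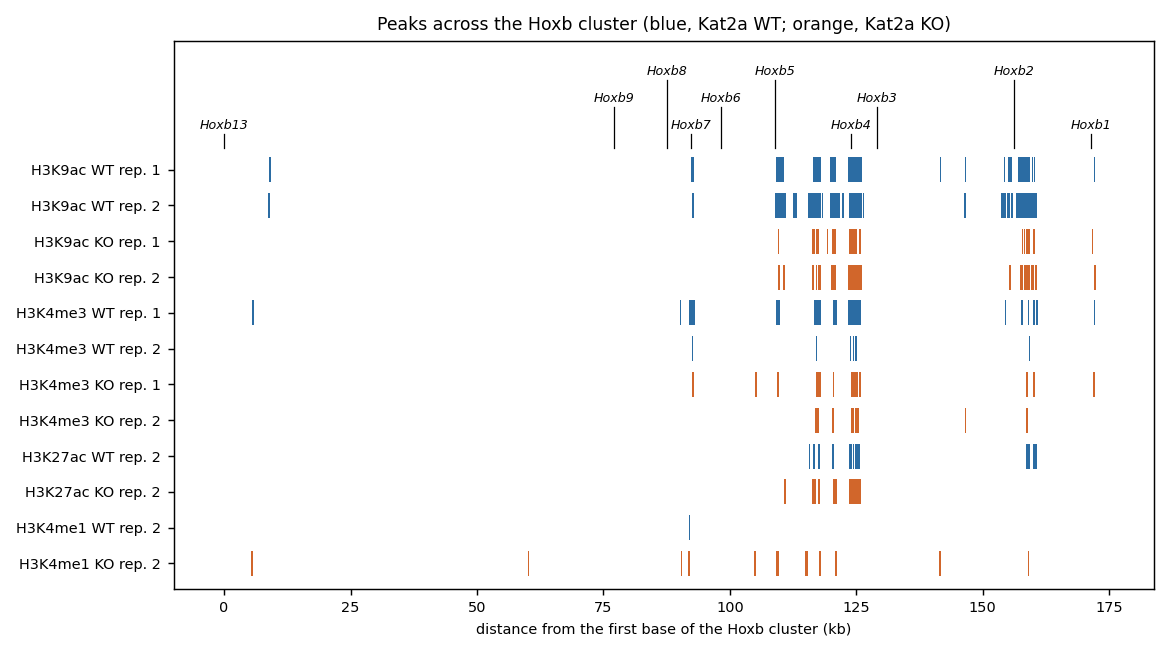
Listed peaks of each library along the *Hoxb* cluster, with the distance from its first base in kb on the x axis and the outermost annotated start of each gene above. H3K9ac peaks from *Hoxb5* to *Hoxb2* cover more in *Kat2a* WT than in *Kat2a* KO, and *Hoxb8*, *Hoxb9* and *Hoxb13* have none at their promoters.

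At promoters, 9 of the 38 *Hox* genes (23.7%) carried H3K9ac in all 4 libraries, against 49.4% of all protein-coding genes, and 21 (55.3%) carried it in none, against 43.5%. Those with the mark throughout were *Hoxa3*, *Hoxa4*, *Hoxa6*, *Hoxa7*, *Hoxa9*, *Hoxa10*, *Hoxb2*, *Hoxb4* and *Hoxb5*. H3K4me3 was present in all 4 libraries at 7 genes, which were *Hoxa3*, *Hoxa4*, *Hoxa7*, *Hoxa9*, *Hoxa10*, *Hoxa11* and *Hoxb4*, against 46.7% of all protein-coding genes, and in none at 14, against 42.7%. Both marks were present in all 4 libraries at 6 *Hox* genes, and at 9887 of the 21938 protein-coding genes.

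Peaks in both replicates were listed for H3K9ac at 13 *Hox* promoters in *Kat2a* WT and 10 in *Kat2a* KO, against 51.7% and 50.1% of protein-coding genes, and for H3K4me3 at 8 and 7, against 48.4% and 49.99%. *Hoxb3* and *Hoxb7* had an H3K9ac peak in both *Kat2a* WT and neither *Kat2a* KO library, 2 of 38 genes, a pattern that 0.647% of protein-coding genes had. No *Hox* gene had the reverse pattern, which 0.173% of protein-coding genes had. For H3K4me3, 0 *Hox* genes had a peak in both *Kat2a* WT and neither *Kat2a* KO library (0.346% of protein-coding genes) and 0 the reverse (0.228%). With the summit inside the window, the counts in both replicates were 7 and 7 for H3K9ac and 4 and 5 for H3K4me3. Those in 1 genotype alone depend on the replicates. Without replicate 1 the H3K9ac count was 3 in *Kat2a* WT alone (*Hoxc9* in addition) and 2 in *Kat2a* KO alone (*Hoxa2* and *Hoxb1*), and without replicate 2 it was 5 (*Hoxa5*, *Hoxa11* and *Hoxc6* in addition) and 1 (*Hoxc9*). For H3K4me3 the counts in *Kat2a* WT alone and *Kat2a* KO alone were 1 and 7 without replicate 1, and 7 and 3 without replicate 2. Shares of all protein-coding genes with a replicate left out are not given here, so these counts have no background to be read against.

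**Figure D4:**
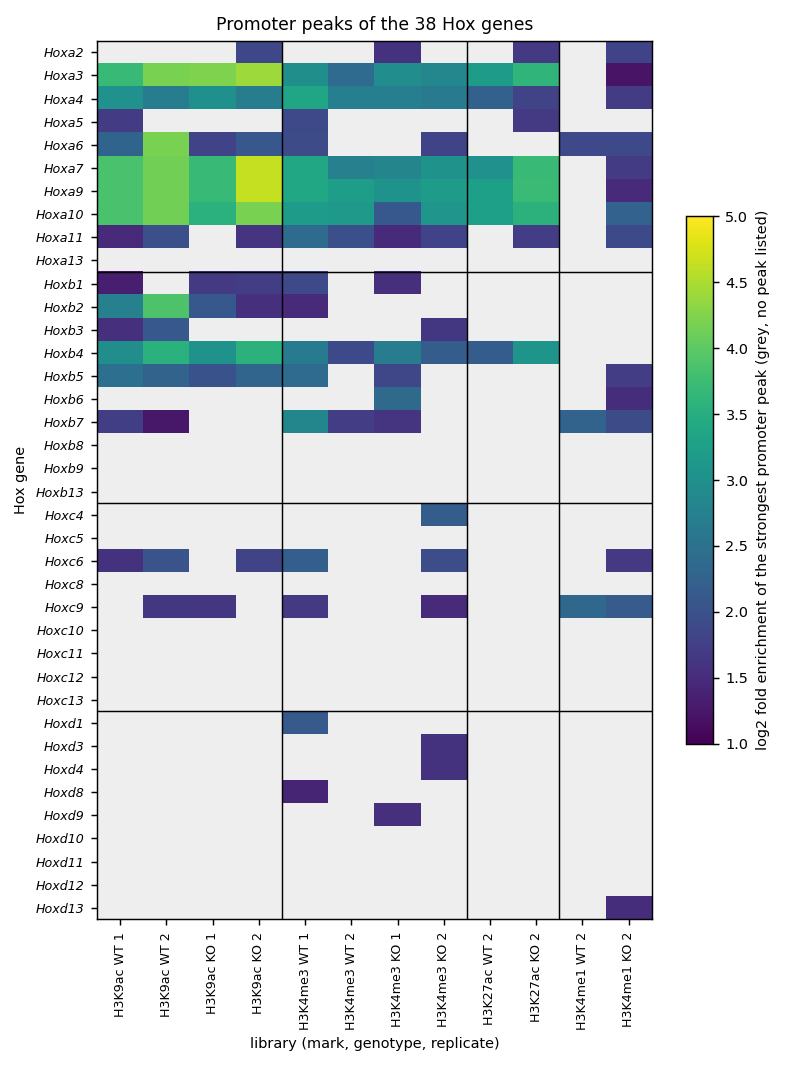
Strongest promoter peak of each of the 38 *Hox* genes (lines, by cluster) in the 12 libraries used (columns), colored by the log2 of the fold enrichment, with grey where no peak was listed. *Hoxa3*, *Hoxa4*, *Hoxa7*, *Hoxa9*, *Hoxa10* and *Hoxb4* carry H3K9ac and H3K4me3 in every library, and *Hoxd* promoters carry no acetylation.

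*Hoxa9*, the homeodomain factor most closely tied to MLL-rearranged leukemia, had promoter H3K9ac at a fold enrichment of 14.4 and 17.8 in *Kat2a* WT and 13.1 and 25.0 in *Kat2a* KO. *Hoxa10*, which acts with it in progenitor expansion, had 14.4 and 17.8 in *Kat2a* WT and 11.8 and 18.3 in *Kat2a* KO. *Hoxa7*, a further target of MLL fusions, had 14.4 and 17.8 in *Kat2a* WT and 13.0 and 25.0 in *Kat2a* KO. These 3 genes share the wide peak in *Kat2a* WT, so their values there are 1 measurement. In *Kat2a* KO replicate 2, *Hoxa7* and *Hoxa9* share 1 peak, so their 25.0 is 1 measurement too. At each of the 3 genes the *Kat2a* KO libraries lay on either side of the *Kat2a* WT libraries. Among the promoter peaks of protein-coding genes in the same library, *Hoxa9* stood at the 68.7th and 80.7th percentile in *Kat2a* WT and at the 69.4th and 93.7th in *Kat2a* KO, within the upper part but not at the top.

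H3K4me3 at *Hoxa9* had a fold enrichment of 10.6 and 9.41 in *Kat2a* WT and 8.24 and 9.23 in *Kat2a* KO. At *Hoxa10* it was 9.18 and 8.85 in *Kat2a* WT and 4.29 and 8.54 in *Kat2a* KO, and at *Hoxa7* it was 10.4 and 6.72 in *Kat2a* WT and 7.04 and 8.31 in *Kat2a* KO. Both *Kat2a* WT values were above both *Kat2a* KO values at *Hoxa9* and *Hoxa10*, and at *Hoxa7* the genotypes overlapped. The median over all promoters with an H3K4me3 peak was 8.54 and 5.94 in *Kat2a* WT and 6.11 and 7.42 in *Kat2a* KO, and as percentiles of their library both *Hoxa9* and *Hoxa10* overlapped between genotypes. Centred on the library medians, limma gave *Hoxa9* a log2 difference of −0.14 (unadjusted p = 0.71) and *Hoxa10* one of −0.52 (unadjusted p = 0.175). At *Hoxa4* and *Hoxa11*, which were picked by these values, both *Kat2a* WT values were also higher, and the genotypes stayed apart as percentiles. Here and below, the share of all promoters with genotypes apart in fold enrichment is not given, so such separations have no background to be read against. *Hoxa4* had 10.4 and 6.64 in *Kat2a* WT and 6.54 and 6.285 in *Kat2a* KO (percentiles 69.3, 62.6, 56.4 and 35.75). *Hoxa11* had 5.29 and 3.92 in *Kat2a* WT and 2.785 and 3.485 in *Kat2a* KO (percentiles 17.5, 13.8, 2.26 and 5.95). Limma gave them −0.31 (unadjusted p = 0.391) and −0.49 (unadjusted p = 0.18). H3K27ac in replicate 2 was 9.54 in *Kat2a* WT and 13.2 in *Kat2a* KO at *Hoxa9*, 9.54 and 11.9 at *Hoxa10*, and 8.11 and 13.1 at *Hoxa7*. The median over all promoters with an H3K27ac peak was 6.39 in *Kat2a* WT and 8.29 in *Kat2a* KO in these libraries, so the *Kat2a* KO library was higher over promoters in general.

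*Hoxb4*, known for its capacity to expand hematopoietic stem cells, kept its H3K9ac in all libraries, with 7.90 and 11.8 in *Kat2a* WT and 8.28 and 11.8 in *Kat2a* KO. Its H3K4me3 was 6.30 and 3.72 in *Kat2a* WT and 6.47 and 4.53 in *Kat2a* KO, and its H3K27ac in replicate 2 was 4.51 and 8.40. *Hoxb4* thus had overlapping genotypes for both marks with replicates, inside the cluster whose covered share differed.

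*Hoxb2*, a patterning gene at the *Hoxb1* end of the cluster, had H3K9ac at 6.71 and 14.7 in *Kat2a* WT and 4.27 and 2.90 in *Kat2a* KO, with no overlap between genotypes. It lay under a peak of 2.32 kb and one of 4.13 kb in *Kat2a* WT, and in *Kat2a* KO the promoter carried a peak of 0.263 kb in replicate 1 and, in replicate 2, one of 0.234 kb with the value of 2.90 and one of 0.615 kb with 2.23. In *Kat2a* KO replicate 2 a stronger peak (fold enrichment 5.66) was listed in the gene just outside the promoter window, from 96352519 to 96353678, so the value at the window depends on how the stretch was divided into peaks. H3K4me3 was listed at *Hoxb2* in *Kat2a* WT replicate 1 only, at 2.79.

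*Hoxb3*, which with *Hoxb4* takes part in blood stem cell proliferation, had weak H3K9ac of 2.93 and 4.29 in *Kat2a* WT and none in *Kat2a* KO, and H3K4me3 of 3.14 in *Kat2a* KO replicate 2 only. *Hoxb7* had H3K9ac of 3.36 and 2.39 in *Kat2a* WT and none in *Kat2a* KO, with H3K4me3 of 7.17 and 3.32 in *Kat2a* WT and 3.05 in *Kat2a* KO replicate 1 alone. Both were at or below the 9.42nd percentile of H3K9ac promoter peaks in the libraries where they were listed, that is, near the lower end of what was listed at all. With only the outermost TSS of each gene *Hoxb7* alone kept the pattern, with the same number of peaks per library *Hoxb3* alone did, and with −log10 q of at least 5 only *Hoxb2* had it.

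*Hoxc6* was the only *Hoxc* gene with H3K9ac in both replicates of a genotype, at 2.99 and 4.06 in *Kat2a* WT and at 3.51 in *Kat2a* KO replicate 2 alone. Its H3K4me3 was 4.65 in *Kat2a* WT replicate 1 and 3.83 in *Kat2a* KO replicate 2. *Hoxc9* had H3K9ac in 1 library of each genotype, and *Hoxc4* had H3K4me3 in *Kat2a* KO replicate 2 alone. No H3K27ac peak was listed at a *Hoxc* promoter in any library.

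At the promoters of the other *Hoxa* genes, *Hoxa11* had H3K9ac in both *Kat2a* WT libraries and in *Kat2a* KO replicate 2, *Hoxa5* in *Kat2a* WT replicate 1 alone and *Hoxa2* in *Kat2a* KO replicate 2 alone. *Hoxa13*, a gene of limb and genital development, had no promoter peak of any mark. In *Hoxb*, *Hoxb1* had H3K9ac in 3 libraries, *Hoxb6* had none, and *Hoxb8*, *Hoxb9* and *Hoxb13* had no promoter peak of any mark. In *Hoxd*, *Hoxd1*, *Hoxd3*, *Hoxd4*, *Hoxd8* and *Hoxd9* each had promoter H3K4me3 in a single library, and *Hoxd13* had H3K4me1 in *Kat2a* KO replicate 2. In the 12 libraries used, 13 of the 38 *Hox* genes had no promoter peak of any mark, as did 8276 of the 21938 protein-coding genes.

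No *Hox* promoter passed limma's test of the fold enrichment of the strongest promoter peak in *Kat2a* KO against *Kat2a* WT. This test can use only promoters with a peak in all 4 libraries of a mark, so genes such as *Hoxb3* and *Hoxb7* are outside it. For H3K9ac, 0 of 9 *Hox* genes and 0 of 10837 genes in all (0%) passed a Benjamini-Hochberg adjusted p of 0.05, and at an unadjusted p of 0.05 limma counted 2 *Hox* genes and 393 genes in all (3.63%). For H3K4me3, 0 of 7 *Hox* genes and 0 of 10247 in all (0%) passed, with 0 *Hox* genes and 563 in all (5.49%) at the unadjusted level. The median log2 difference of the *Hox* genes was 0.08 for H3K9ac and −0.14 for H3K4me3, against 0.01 and 0.00 over all genes tested. Single *Hox* genes ranged from −1.41 (*Hoxb2*) to 0.45 (*Hoxa3*) for H3K9ac, so the median says little about any of them.

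**Figure D5:**
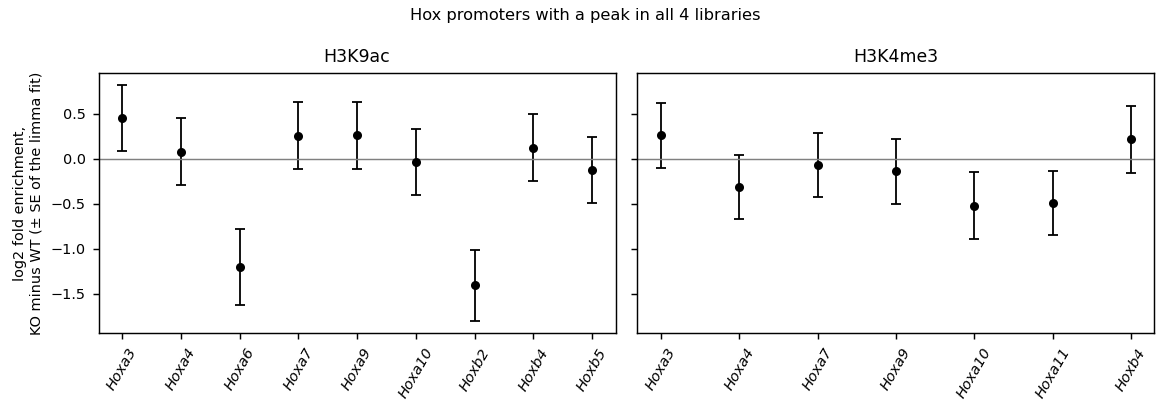
Log2 difference in fold enrichment of the strongest promoter peak, *Kat2a* KO minus *Kat2a* WT (y axis), for the *Hox* genes with a peak in all 4 libraries (x axis), with bars of 1 SE from limma. *Hoxa6* and *Hoxb2* lie lowest for H3K9ac, at −1.20 and −1.41, and none passed the adjusted threshold.

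The pair at the unadjusted level was *Hoxb2* and *Hoxa6*, both singled out by their values, *Hoxb2* by its high H3K9ac in *Kat2a* WT and *Hoxa6* by this test. *Hoxb2* had a log2 difference of −1.41 (SE 0.40, n = 2 per genotype, limma unadjusted p = 0.00111, adjusted p = 1), which was −1.97 without *Kat2a* WT replicate 1 and −0.85 (unadjusted p = 0.0669) without *Kat2a* WT replicate 2. *Hoxa6* had −1.20 (SE 0.42, limma unadjusted p = 0.00728, adjusted p = 1), from H3K9ac of 4.89 and 18.3 in *Kat2a* WT and 3.50 and 4.25 in *Kat2a* KO. The 18.3 of *Kat2a* WT replicate 2 belongs to a peak of 6.71 kb that also covers the outermost start of *Hoxa3*, whereas *Hoxa6* lay under a peak of 1.47 kb in *Kat2a* WT replicate 1. Without *Kat2a* WT replicate 1, limma called *Hoxa6* (−2.15) and *Kdm6b*, an H3K27 demethylase gene (−2.21), both at an adjusted p of 0.0332, in a test that takes the lone *Kat2a* WT library to vary as the *Kat2a* KO libraries do. Over the alternatives the adjusted p of *Hoxa6* ranged from 0.0332 to 1, and without *Kat2a* WT replicate 2 its difference was −0.26, so the value rests on that library.

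H3K27ac was confined to *Hoxa* and *Hoxb* in replicate 2, with 6 *Hox* promoters in *Kat2a* WT (*Hoxa3*, *Hoxa4*, *Hoxa7*, *Hoxa9*, *Hoxa10* and *Hoxb4*) and 9 in *Kat2a* KO, which added *Hoxa2*, *Hoxa5* and *Hoxa11*. These are 15.8% and 23.7% of the *Hox* genes, against 44.35% and 49.8% of protein-coding genes. It covered 17.9% of the *Hoxa* span in *Kat2a* WT and 21.6% in *Kat2a* KO, and of *Hoxb* 2.44% and 2.45%. *Hoxc* and *Hoxd* held none in replicate 2. The share of *Hoxa* was thus a little higher in *Kat2a* KO, in a library that covers more of the genome. That of *Hoxb* was alike over all listed peaks, and *Kat2a* KO minus *Kat2a* WT was 0 with the number of the shortest list, 1.26 points with −log10 q of at least 5 and −0.237 with equal replicate 2 lists, chosen after seeing the data. From *Hoxb5* to *Hoxb4*, 3.23 kb lay under H3K27ac in *Kat2a* WT and 4.75 kb in *Kat2a* KO, and from *Hoxb3* to *Hoxb1* 1.495 kb and 0.

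H3K4me1 was sparse over the *Hox* clusters in *Kat2a* WT and more frequent in *Kat2a* KO, again in 1 library per genotype. In replicate 2 it covered 0.277% of *Hoxa* in *Kat2a* WT and 9.66% in *Kat2a* KO, 0.149% and 2.06% of *Hoxb*, 0.321% and 1.07% of *Hoxc*, and 0 and 0.434% of *Hoxd*. Promoter H3K4me1 was listed at 3 *Hox* genes in *Kat2a* WT (*Hoxa6*, *Hoxb7* and *Hoxc9*) and at 14 in *Kat2a* KO, or 7.89% and 36.8%, against 18.4% and 37.2% of protein-coding genes. The *Kat2a* KO list covers 42.1 Mb against 11.5 Mb, and with the same number of peaks in both lists, chosen after seeing the data, the difference was 5.78 points at *Hoxa*, 0.948 at *Hoxb*, 0.541 at *Hoxc* and 0 at *Hoxd*. With the number of the shortest list of the mark, as planned, it was 0 at *Hoxa*, −0.149 at *Hoxb*, −0.321 at *Hoxc* and 0 at *Hoxd*, and with −log10 q of at least 5 it was 0 at all 4. The part of list size in the remaining difference was not tested.

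Of the noncoding genes that start in the spans, 7 microRNA genes and 19 long noncoding RNA genes, 3 carried H3K9ac in all 4 libraries. *Mir196b* had 14.4 and 17.8 in *Kat2a* WT and 13.1 and 25.0 in *Kat2a* KO, from the peaks it shares with *Hoxa9*. *Hotairm1*, a myeloid antisense RNA gene next to *Hoxa2*, had 11.7 and 14.7 in *Kat2a* WT and 10.6 and 12.9 in *Kat2a* KO. *Hoxb3os*, antisense to the *Hoxb3* region, had 3.22 and 14.7 in *Kat2a* WT and 3.74 and 3.71 in *Kat2a* KO, where the 14.7 is the wide *Hoxb2* peak of *Kat2a* WT replicate 2. The genotypes overlapped in H3K9ac at all 3, while both *Hotairm1* H3K4me3 values of *Kat2a* WT, 11.2 and 9.02, were above those of *Kat2a* KO, 5.26 and 6.43. H3K9ac was absent from 5 microRNA and 14 long noncoding RNA genes, including *Hottip*, just beyond *Hoxa13*, and *Hotair*, between *Hoxc12* and *Hoxc11*.

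*Hox* promoters had a higher median CpG count than all promoters of the table, whether or not they carried H3K9ac. The 24 *Hox* promoters with sequence had a median of 14.5 CG dinucleotides in 300 bases, against 7 over all 32851 promoters in the table. The 7 promoters of genes with H3K9ac in all 4 libraries had a median of 14, and the 13 of genes with H3K9ac in none had 20. Both groups held low and high counts: *Hoxd4* with 4, *Hoxd8* with 6, *Hoxd13* with 37 and *Hoxa13* with 45 had no H3K9ac, and *Hoxa9* with 4 and *Hoxa6* with 26 had it throughout. The letters TGATTNAT, a joint Hox and Pbx motif, occurred on either strand in 3.22% of all promoters and in 2 of the 24 *Hox* promoters (*Hoxa2* and *Hoxd11*). The letters TGACAG, a Meis motif that does not overlap with it, occurred in 19.2% of all promoters and in 2 of 24 (*Hoxa2* and *Hoxa3*), and neither motif lies in the *Hoxa7*, *Hoxa9*, *Hoxa10* and *Hoxb4* sequences above.

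H3K9ac at the promoters of the genes beside the clusters was mixed, and whether it follows that of the clusters was not tested. *Skap2*, an adaptor protein gene 150 kb before *Hoxa*, had H3K9ac of 9.32 and 18.7 in *Kat2a* WT and 6.12 and 22.9 in *Kat2a* KO, whereas *Evx1*, a homeobox gene 52.6 kb after *Hoxa13*, had no promoter peak. Beside *Hoxd*, *Evx2*, 8.75 kb away, had no promoter peak either, but *Lnpk* had 9.41 and 10.1 in *Kat2a* WT and 18.7 and 14.3 in *Kat2a* KO, and *Mtx2* had 8.64 and 11.1 in *Kat2a* WT and 6.44 and 12.1 in *Kat2a* KO. *Ttll6*, *Calcoco2* and *Skap1*, the nearest genes to *Hoxb*, had none. *Snx11*, farther from *Hoxb*, had 9.26 and 10.65 in *Kat2a* WT and 2.99 and 14.1 in *Kat2a* KO. *Snx10* and *Hibadh* beside *Hoxa*, *Hnrnpa3* beside *Hoxd*, and *Calcoco1*, *Atp5g2* and *Cbx5* beside *Hoxc* had H3K9ac in all 4 libraries. *Smug1* beside *Hoxc* had it in all but *Kat2a* WT replicate 1.

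The cofactors of Hox proteins and the MLL fusion complex kept H3K9ac in all 4 libraries at 11 of 13 genes, against 49.4% of all protein-coding genes. Of these limma called 0 of 11, with 0 at an unadjusted p of 0.05, against 3.63% of all genes tested. Their median log2 difference was 0.03, against 0.01 over all genes. *Meis1*, the main cofactor of Hoxa9, had 18.0 and 22.9 in *Kat2a* WT and 14.6 and 22.6 in *Kat2a* KO. *Pbx3*, which pairs with Hoxa9 in leukemia, had 15.8 and 14.9 in *Kat2a* WT and 13.5 and 16.3 in *Kat2a* KO. Among Polycomb genes, H3K9ac was present in all 4 libraries at 13 of 13, limma called 0 with 0 at the unadjusted level, and the median log2 difference was 0.06. For H3K4me3, limma called 0 of 12 cofactor genes and 0 of 12 Polycomb genes. At the unadjusted level it counted 0 and 2, against 5.49% of all genes tested, and the medians were 0.09 and 0.07.

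Marker genes of the myeloid lineage carried H3K9ac in both genotypes, and those of B and T cells did not. Of 8 myeloid genes, H3K9ac was listed at 8 and 8 in *Kat2a* WT and 6 and 8 in *Kat2a* KO. Over the 6 tested the median log2 difference was −0.30, and limma called 0 with 0 at an unadjusted p of 0.05. Both *Kat2a* WT values were higher at *Spi1* (19.9 and 24.4 against 13.1 and 15.7) and *Cebpa* (15.5 and 11.4 against 9.65 and 9.92). Both were lower at *Kit* (5.32 and 4.485 against 5.37 and 7.84), and *Itgam*, *Csf1r* and *Ptprc* overlapped. The median over all promoters with an H3K9ac peak was 10.7 and 11.1 in *Kat2a* WT and 9.61 and 11.6 in *Kat2a* KO. How many of all promoters have genotypes apart, as at *Spi1*, *Cebpa* and *Kit*, is not given here. *Mpo* had H3K4me3 of 3.34 and 3.16 in *Kat2a* WT and none in *Kat2a* KO, a pattern that 0.346% of protein-coding genes had. Its H3K9ac was 3.715 and 2.918 in *Kat2a* WT and 4.589 in *Kat2a* KO replicate 2 alone. In replicate 2 its H3K27ac was 2.844 in *Kat2a* WT and 4.353 in *Kat2a* KO. H3K9ac was listed at 0 of 4 B cell and 0 of 4 T cell genes in every library. Of 4 erythroid genes it was listed at 2 and 0 in *Kat2a* WT and 2 and 3 in *Kat2a* KO. *Epor*, the erythropoietin receptor gene, had 2.67 and 3.29 in *Kat2a* KO and none in *Kat2a* WT, a pattern that 0.173% of protein-coding genes had. *Gata1*, the defining erythroid factor, had no H3K9ac in any library. *Col1a1* and *Pecam1*, of 4 stromal and endothelial genes, had H3K9ac in all 4 libraries, at 2.75 to 4.14 and 4.86 to 8.67, and *Cdh5*, an endothelial cadherin, had none. *Pdgfra*, a mesenchymal receptor gene, had H3K9ac in *Kat2a* WT replicate 2 alone, at 3.84. Its H3K4me3 was 4.65 and 4.11 in *Kat2a* WT, with none in *Kat2a* KO, the pattern of 0.346% of protein-coding genes. The part of such cells in the *Hox* values was not tested.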

How the data were processed

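Peak lists of the 16 ChIP libraries were analysed, and the 16 input samples were not analysed here. The authors used BWA for alignment to mm10 and MACS2 for peak calling, library by library, with versions not given in the sources used here. The deposited values are a fold enrichment at each summit (a ratio), a score, and −log10 of the q-value and p-value. The smallest −log10 p was 2.00 to 2.07 in every library.

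Positions were set against GENCODE M21. No measured value was used in the choice of the members, but they and the gene lists were chosen with earlier results of these data known. Values in every library are given for *Hoxa9* and *Hoxa10*, for the *Hox* genes with the strongest mean H3K9ac peak in *Kat2a* WT (2 per cluster and ties, with a peak in both replicates), and for those with H3K9ac or H3K4me3 in both replicates of 1 genotype and neither of the other. Other *Hox* genes are given by presence, apart from *Hoxa6*, picked by its limma result, and *Hoxa4* and *Hoxa11*, picked by their H3K4me3 values. 1 further *Hox* gene and 1 gene of the lists are not reported here.

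Covered shares were compared with a two-sided exact permutation test. Fold enrichments at promoters with a peak in all 4 libraries, as log2 and centred on each library's median, were compared with limma 3.58.1 (R 4.3.3) and Benjamini-Hochberg adjustment over all promoters. Alternatives were stricter q-values, equal numbers of peaks, no flank, the outermost TSS, the summit inside the window, either or both replicates, each replicate left out, other centring, a lower peak requirement and a replicate block. Tools were scipy 1.17.1, numpy 2.4.6 and matplotlib 3.10.9 under Python 3.11.15. Overlaps were checked on simulated intervals against bedtools 2.31.1, and 100 of 100 comparisons were identical.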

Additional observations from a re-analysis of the deposited data

Results flagged for a closer look

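Replicate 1 of H3K27ac and H3K4me1 was not used for the main comparisons of the *Hox* clusters and entered only alternatives. Its lists hold peaks there. *Kat2a* WT H3K27ac replicate 1 has 4 peaks in the 4 cluster spans, of which 2, at the promoters of *Hoxa7* and *Hoxa10*, overlap a peak of replicate 2. Of the others, 1 lies at the *Hoxb6* promoter and 1 at no *Hox* promoter. *Kat2a* KO H3K4me1 replicate 1 has 6 peaks in the spans, of which 0 overlap a peak of replicate 2 and none lies at a *Hox* promoter. The replicate 1 lists of *Kat2a* KO H3K27ac and *Kat2a* WT H3K4me1 have 2 peaks each in the spans, of which 0 overlap a peak of replicate 2, with *Hoxd11* the only *Hox* promoter among them. The first 2 libraries drew attention because peaks are listed there outside the main comparisons. In these 4 libraries at most 0.0485% of peaks passed a q-value of 0.05.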

How the results depend on the processing

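Depth is unknown, so a *Hox* region without a peak is one where none was listed, and no detection limit can be given. Of 220 alternative values for 32 results, 9 changed sign, 46 moved and 165 did neither, and the causes were not tested. To move was to differ by more than 1.5 times, or to become or stop being 0, and a share difference with a permutation test was held only to its direction, whatever its size. The lower H3K9ac share of *Hoxb* in *Kat2a* KO kept its direction throughout, from −3.47 to −4.30 percentage points over the peak and flank settings and from −3.23 to −4.48 with a replicate left out.

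With the replicate number as a replicate block, the H3K9ac difference was −2.26 points at *Hoxa*, −3.85 at *Hoxb* and −0.171 at *Hoxc*. The two-sided exact sign-flip permutation gave p = 0.5 for each of these, the smallest possible. At *Hoxd* the H3K9ac difference was 0, and those of H3K4me3 were −2.10, −0.738, −0.261 and 0.312 from *Hoxa* to *Hoxd*. The replicate block in limma left 0 calls, with 542 H3K9ac and 579 H3K4me3 promoters at an unadjusted p of 0.05, and the block changed no call. The deviations of libraries with the same number correlated at 0.13 for H3K9ac and −0.00 for H3K4me3 across genes.

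With a replicate left out, the covered share differed by −1.19 to −3.33 (*Hoxa*), −0.0619 to −0.279 (*Hoxc*) and 0 (*Hoxd*) points for H3K9ac, and by −8.45 to 4.25 (*Hoxa*), −2.29 to 0.817 (*Hoxb*), −1.41 to 0.888 (*Hoxc*) and −0.0787 to 0.703 (*Hoxd*) for H3K4me3. Both-replicate promoter counts became 14 to 15 in *Kat2a* WT and 11 to 13 in *Kat2a* KO for H3K9ac, and 8 to 17 and 13 to 14 for H3K4me3. Promoters listed in *Kat2a* WT alone numbered 3 to 5 (H3K9ac) and 1 to 7 (H3K4me3), and in *Kat2a* KO alone 1 to 2 and 3 to 7. Limma called 0 to 2 H3K9ac promoters, 0 to 1 of them *Hox*, and 0 for H3K4me3.

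With −log10 q of at least 5, the difference was 0 for *Hoxc* H3K9ac, 1.26 for *Hoxb* H3K27ac and 0 for H3K4me1 at all 4 clusters, *Kat2a* WT H3K4me3 promoters numbered 5, H3K9ac promoters in *Kat2a* WT alone 1, and H3K4me1 promoters 0 in both genotypes. With q of at most 0.05, *Hoxb* H3K27ac differed by 0.178. With the same number of peaks per library, *Hoxc* H3K4me3 differed by 0.241, *Hoxb* H3K27ac by 0, and H3K4me1 by 0 (*Hoxa*), −0.149 (*Hoxb*), −0.321 (*Hoxc*) and 0 (*Hoxd*), and promoters in *Kat2a* WT alone numbered 1 for H3K9ac and 1 (*Hoxb7*) for H3K4me3. With equal replicate 2 lists, chosen after seeing the data, *Hoxb* H3K27ac differed by −0.237 and H3K4me1 by 5.78 (*Hoxa*), 0.948 (*Hoxb*) and 0 (*Hoxd*). As means of both replicates, H3K27ac differed by 1.81 (*Hoxa*), −0.00954 (*Hoxb*) and 0.0338 (*Hoxd*) and H3K4me1 by 4.69, 0.980, 0.410 and 0.217 from *Hoxa* to *Hoxd*. With the summit in the window, counts were 7 in *Kat2a* WT and 7 in *Kat2a* KO for H3K9ac, and 4 and 5 for H3K4me3. With either replicate, H3K4me3 counts were 17 in *Kat2a* WT and 20 in *Kat2a* KO. With both replicates, H3K27ac counts were 2 and 0 and H3K4me1 counts 0 and 0. With the outermost TSS, 1 H3K9ac promoter was listed in *Kat2a* WT alone.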
